A study of Mus musculus with 4 samples.

Results

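The transcripts described here encode proteins of families that take part in filling the cavity of the mouse blastocyst: beta subunits of the sodium pump, a sodium/proton exchanger and aquaporins. Whether each of these genes does so was not tested. The 7 genes (Atp1b1, Atp1b3, Slc9a3, Aqp3, Aqp8, Aqp9 and Aqp11) were taken by symbol from a table of 22013 gene rows, and all 7 were found once. The table gives FPKM, a level scaled to transcript length and library depth, so that levels of different genes can be set side by side. Each of the 4 libraries was poly(A) RNA from a pool of 5 C57BL/6 blastocysts, cultured in vitro after superovulation and mating within the strain. Control pools 1 and 2 are labelled wild type, and the labels variously describe them as given no treatment, Cas9 protein alone or a control guide RNA. Knockout pools 1 and 2 are described as coming from zygotes given CRISPR-Cas9 against Ywhaz, the gene of the adaptor protein 14-3-3 zeta, whereas the table names their columns si_Ywhaz, a prefix it does not explain. Since each library pools 5 embryos, neither single embryos nor separate cell types were resolved, and fewer cells of a type and less RNA per cell cannot be told apart. Whether the pools within a group had different parents or collection days is not stated, and the spread behind every p-value may therefore be technical.

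The outer epithelium of the blastocyst, the trophectoderm, makes the cavity. Sodium enters its cells from outside, partly through apical sodium/proton exchangers, and the Na/K-ATPase pumps it out across the basolateral membrane. Water follows through aquaporins and around the cells, and tight junctions keep the fluid in. The pump needs a catalytic alpha subunit and a glycosylated beta subunit, which the alpha subunit requires to leave the endoplasmic reticulum and reach the membrane.

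In the libraries, Aqp3 was by far the most abundant member and Slc9a3 was listed at 0 in all of them. Both beta subunits had nearly the same mean in knockout and control pools. Aqp8 was the member with the widest difference: its knockout mean was 34.0% of the control mean, but the knockout pools lay 13.7-fold apart. No member passed an adjusted p of 0.05 (limma on log2(FPKM + 1) over the 9544 genes that averaged 1 FPKM or more). Over those genes 7 passed, which is 0.0733%. At an unadjusted limma p under 0.05 there was 1 member, Aqp8, of the 6 tested, against 11.1% of all genes tested. In the authors' deposited table, too, no member had an FDR below 1.

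Ywhaz itself measured 143 and 123 FPKM in control pools 1 and 2, and 32.7 and 98.2 FPKM in knockout pools 1 and 2. Knockout pool 2 thus kept 73.8% of the control mean of the targeted transcript and knockout pool 1 kept 24.6%. The log2 fold change of Ywhaz, knockout minus control, was −1.21 ± 0.39 (SE) with a limma adjusted p of 0.305. A level per gene does not show whether the remaining transcript came from edited alleles, and the differing names leave the means of Ywhaz loss unsettled here. Estimated from the spacing of low values, the depth differed little between libraries, with 17.5 to 18.4 fragments per kilobase behind 1 FPKM, and 15212 to 15490 genes were above 0. Transcripts of trophectoderm markers were found in all pools, with Cdx2 at 13.2 to 33.0 FPKM and Krt8 at 61.4 to 116 FPKM. All 13 markers on a list were above 0, but Gata2 was only 0.019 FPKM in knockout pool 1. Low markers went both ways: Elf5 measured 1.72 and 1.65 FPKM in control pools and 0.793 and 0.649 FPKM in knockout pools, and Hand1 1.11 and 1.14 against 4.33 and 5.19 FPKM. Markers of cumulus and granulosa cells, which surround the egg, stayed at or below 0.219 FPKM, with Has2 and Cyp19a1 at 0 throughout. The 7 blood cell markers summed to 7.95 and 11.7 FPKM in control pools and to 16.6 and 6.72 FPKM in knockout pools, with no single marker above 10.97 FPKM.

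The RefSeq windows upstream of the starts of the 4 members that the results turn on are shown here, each running from 250 bases before the start to the base before it. They are given for Aqp3 as the most abundant member, Aqp8 as the member whose groups did not overlap, and Atp1b1 and Atp1b3 as the beta subunits. These last were the closest pair among the tested members, though many other genes lay closer to Atp1b3. Sequences read 5′ to 3′ on the strand of the gene, and positions are those of GRCm38.p6, not of GRCm39, the build the submitters name. Capitals mark letters that match a searched motif on either strand.
Aqp3, minus strand, chr4:41098184-41098433: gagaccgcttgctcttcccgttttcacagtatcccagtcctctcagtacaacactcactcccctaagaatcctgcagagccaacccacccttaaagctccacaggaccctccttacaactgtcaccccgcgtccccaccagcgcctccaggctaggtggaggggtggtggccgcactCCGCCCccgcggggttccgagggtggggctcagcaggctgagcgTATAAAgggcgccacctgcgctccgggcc
Aqp8, plus strand, chr7:123462044-123462293: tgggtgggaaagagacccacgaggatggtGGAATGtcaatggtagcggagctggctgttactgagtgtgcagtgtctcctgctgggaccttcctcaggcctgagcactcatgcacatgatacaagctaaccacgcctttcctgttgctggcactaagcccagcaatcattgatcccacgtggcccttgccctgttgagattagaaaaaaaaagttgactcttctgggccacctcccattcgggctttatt
Atp1b1, minus strand, chr1:164458356-164458605: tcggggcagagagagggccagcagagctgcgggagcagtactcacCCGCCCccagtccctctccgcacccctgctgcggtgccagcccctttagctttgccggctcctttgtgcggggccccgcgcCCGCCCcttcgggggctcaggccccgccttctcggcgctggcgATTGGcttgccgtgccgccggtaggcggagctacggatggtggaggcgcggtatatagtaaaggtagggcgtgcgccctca
Atp1b3, minus strand, chr9:96364432-96364681: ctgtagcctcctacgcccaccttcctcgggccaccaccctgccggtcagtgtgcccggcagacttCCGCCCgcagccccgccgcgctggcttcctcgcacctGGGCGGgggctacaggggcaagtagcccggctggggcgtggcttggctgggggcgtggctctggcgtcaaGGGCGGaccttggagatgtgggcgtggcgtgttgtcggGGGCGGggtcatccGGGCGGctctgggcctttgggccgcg
The letters searched on both strands for core promoter elements were TATAAA for the TATA box, CCAAT for the box of that name and GGGCGG for the GC box. For factors of the trophectoderm the search used GGAATG for TEAD, GCCNNNGGC for TFAP2 and AGATAA for GATA factors. No matches overlapped in these windows.

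The windows differ in kind. The Aqp3 window held a TATA box from −29 to −24 and a GC box from −73 to −68, with −1 the base before the start. Of 32817 RefSeq windows of the same length, 12.4% held TATAAA on either strand and 32.7% held GGGCGG. The Atp1b1 window held 2 GC boxes and a CCAAT match from −81 to −77, a motif found in 33.8% of windows. The Atp1b3 window held 5 GC boxes. Both beta subunit windows were rich in CG dinucleotides, with 24 each against a median of 6, and in G and C bases, with 70.4% and 73.6% against a median of 52.4%. This was not particular to them. The windows of Aqp11, Slc9a3 and Aqp3 held 23, 19 and 14 CG dinucleotides, with a G and C content of 67.2%, 67.6% and 64.0%. The Aqp9 window lay below both medians, with 1 and 40.4%. The Aqp8 window had a G and C content of 52.4%, 5 CG dinucleotides and 1 TEAD motif from −221 to −216, found in 12.6% of windows. Neither GCCNNNGGC, found in 13.7% of windows, nor AGATAA, found in 9.99%, occurred in any member's window. These are matches of letters and carry no evidence of binding.

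**Figure D1:**
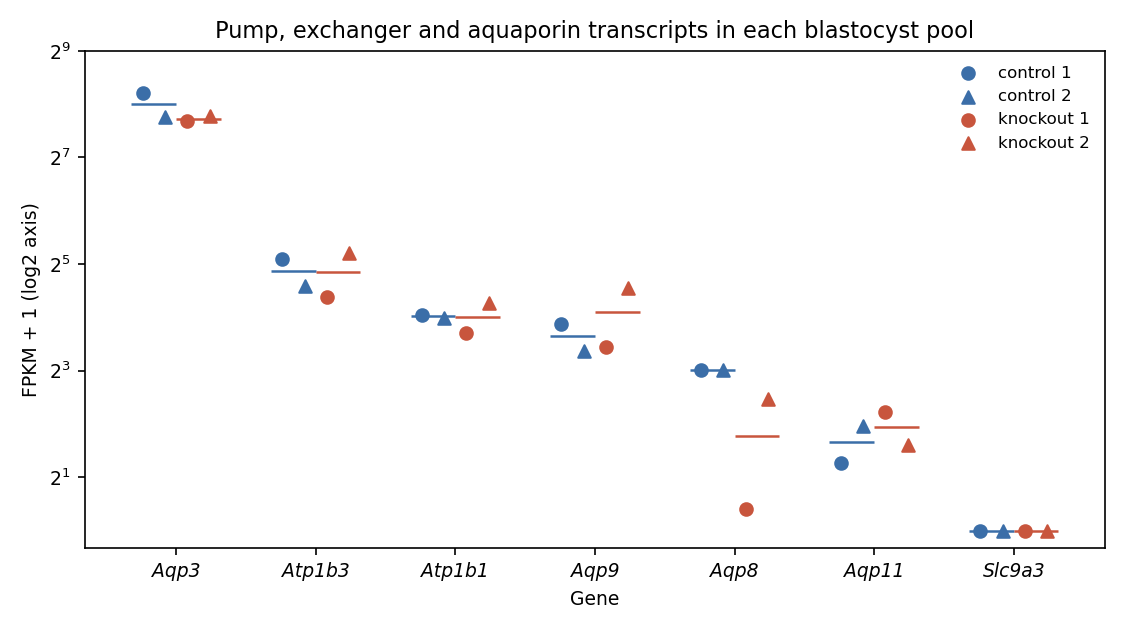
Level of each member in each library, as FPKM + 1 on a log2 axis, with 1 point per pool of 5 blastocysts and a line at each group mean (n = 2 pools a group). Aqp3 sits above all other members in every pool, Slc9a3 is at 0 in all, and Aqp8 shows both control pools near 7.1 FPKM with knockout pool 1 far below knockout pool 2.

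The sodium pump comes first in the order of roles. Atp1b1 encodes the beta subunit of the commonest form of the pump in epithelia, and the mouse embryo needs it to form a cavity. It measured 15.6 and 14.8 FPKM in control pools 1 and 2, and 12.1 and 18.2 FPKM in knockout pools 1 and 2. The control pools lay between the knockout pools, which differed 1.503-fold. Control pools averaged 15.2 ± 0.523 FPKM and knockout pools 15.15 ± 4.30 FPKM (SD, n = 2 each). The log2 fold change was −0.03 ± 0.25 (SE), with a 95% interval from −0.58 to 0.52 (limma adjusted p = 0.981).

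Atp1b3 encodes another beta subunit, which can pair with the same alpha subunit. It measured 33.1 and 23.1 FPKM in control pools and 19.9 and 36.2 FPKM in knockout pools 1 and 2. Knockout pool 2 was the highest and knockout pool 1 the lowest, so the groups overlapped. The means of 28.1 ± 7.08 and 28.0 ± 11.5 FPKM (SD, n = 2 each) gave a log2 fold change of −0.04 ± 0.29 (SE), with a 95% interval from −0.69 to 0.61 (limma adjusted p = 0.980). In each of the 4 pools Atp1b3 stood above Atp1b1. The Atp1b1 share of their summed FPKM was 32% and 39.1% in control pools and 37.8% and 33.5% in knockout pools. The group means of that share were 35.6% ± 5.04 and 35.7% ± 3.09 (SD, n = 2 each). An exact two-sided permutation test gave p = 1, where 2 against 2 pools cannot go below 0.333.

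Over all pools Atp1b1 spanned a 1.503-fold range and Atp1b3 a 1.82-fold range. The remaining beta subunit genes were scarce: Atp1b2 reached at most 0.623 FPKM, and Atp1b4 was listed at 0 in all libraries. Atp1b1 shares 575 exon bases, 18.7% of its annotated exon sequence, with Nme7 on the opposite strand. Nme7 measured 10.8 and 10.4 FPKM in control pools and 7.93 and 13.6 FPKM in knockout pools. Whether counting used strand is not known here, and reads from the shared bases cannot be assigned.

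FXYD regulators of the pump and related pumps formed a list of 10 genes, read gene by gene from the same limma fit. Of these 5 could be tested and none passed. All 5 had negative log2 fold changes, with a median of −0.28 against 0.05 for all genes tested. In 2 the groups did not overlap, both lower in knockout pools. Of all genes tested, 14.0% were apart in that direction and 41.4% in either. Fxyd4 is a small membrane protein that raises the pump's affinity for sodium in kidney and colon. It was above both beta subunits in every pool, but only just above Atp1b3 in knockout pool 2 (36.3 against 36.2 FPKM). It measured 46.1 and 43.8 FPKM in control pools and 35.5 and 36.3 FPKM in knockout pools, so both knockout pools lay below both control pools. Its log2 fold change was −0.32 ± 0.19 (SE; limma adjusted p = 0.591). Fxyd5, which also alters cell adhesion, measured 10.8 and 9.998 FPKM in control pools and 5.41 and 13.3 FPKM in knockout pools, with overlapping groups. Fxyd2, the kidney pump's gamma subunit, was the other gene without overlap. It had 0.928 and 2.23 FPKM in control pools and 0.753 and 0.197 FPKM in knockout pools with a limma adjusted p of 0.383, and was named after its values were seen.

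Slc9a3 encodes the sodium/proton exchanger NHE3, found on the apical membrane of kidney and gut epithelia. It was listed at 0 FPKM in all 4 libraries and was not tested. Taking 3 fragments as the limit that a count of 0 allows, its longest coding transcript of 5118 nt and the lowest estimated depth give a limit of about 0.0349 FPKM, which covers counting error only. Of its relatives, Slc9a2, Slc9a4, Slc9a9 and Slc9c1 never exceeded 0.024 FPKM. Slc9a8, an exchanger of the Golgi, measured 5.99 and 4.36 FPKM in control pools and 2.92 and 4.64 FPKM in knockout pools, with overlapping groups. Slc9b1, an antiporter known from sperm, was almost level over all pools, from 9.80 to 10.7 FPKM.

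Transcripts of 3 partners of the exchangers were detected in all pools. Chp1, a calcium-binding protein that exchangers of the cell surface need, measured 38.0 and 28.2 FPKM in control pools and 22.4 and 41.0 FPKM in knockout pools 1 and 2. Its 4 values fell in the same order as those of Atp1b3. Nherf1, a scaffold for exchangers, ranged from 7.82 to 11.3 FPKM. Ezr, which encodes ezrin, the link from scaffold to actin, ranged from 4.53 to 7.29 FPKM. Of the 7 exchangers and partners that could be tested, out of 17 found in the table, none passed in limma at an adjusted or an unadjusted p of 0.05. Their median log2 fold change was −0.11, against 0.05 for all genes tested, and in none were the groups apart, against 41.4% of all genes tested.

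Aquaporins were dominated by Aqp3, which passes glycerol as well as water and lies on basolateral membranes of the mouse trophectoderm. It measured 294 and 216 FPKM in control pools 1 and 2, and 203 and 218 FPKM in knockout pools 1 and 2. Control pool 1 stood apart, and the other 3 pools lay within 203 to 218 FPKM, so the groups overlapped. The means were 255 ± 54.8 and 211 ± 10.5 FPKM (SD, n = 2 each), with a log2 fold change of −0.26 ± 0.20 (SE), a 95% interval from −0.69 to 0.17 and a limma adjusted p of 0.675. Without control pool 1 the log2 fold change was −0.04. Aqp3 ranked 556th to 727th by FPKM, within the top 3.59% to 4.78% of the genes above 0 in each library. Its neighbour Aqp7, 44.6 kb away on chromosome 4 of GRCm38, stood at 0.502 to 0.904 FPKM.

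Aqp8 encodes a water channel that also passes ammonia and hydrogen peroxide. It measured 7.09 and 7.11 FPKM in control pools 1 and 2, and 0.328 and 4.50 FPKM in knockout pools 1 and 2. Both knockout pools lay below both control pools, and knockout pool 1 held 4.62% of the control mean against 63.4% in knockout pool 2. Groups were apart in 41.4% of all genes tested, with 14.0% lower and 27.4% higher in knockout pools, so 1 member of 6 tested is no result about the members as a set. The depth behind these levels was about 168 fragments in each control pool, 8 in knockout pool 1 and 101 in knockout pool 2, by the longest coding transcript of 1487 nt. The means were 7.10 ± 0.0113 and 2.42 ± 2.95 FPKM (SD, n = 2 each). The log2 fold change was −1.58 ± 0.52 (SE), with a 95% interval from −2.73 to −0.44 and a limma adjusted p of 0.307, which did not pass.

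The Aqp8 difference rested largely on knockout pool 1, the pool that also had the lower Ywhaz level; a link between the 2 was not tested. Without knockout pool 1 the log2 fold change was −0.56 (limma adjusted p = 0.439). Without knockout pool 2 it was −2.61 and passed (limma adjusted p = 1.4e-06), but that fit has a lone knockout pool, assumed to vary like the others, and 1 residual degree of freedom against a prior of 35.1 from all genes. The gap between the knockout pools, 2.05 on the log2(FPKM + 1) scale, was as large, in either direction, in 0.105% of all genes tested. With 0.1 in place of 1 added before the logarithm, the fold change was −2.36, and its limma adjusted p of 0.358 did not pass.

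Aqp9, a channel for water, glycerol and urea, lies on apical membranes of the mouse trophectoderm. It measured 13.7 and 9.38 FPKM in control pools 1 and 2, and 9.82 and 22.3 FPKM in knockout pools 1 and 2. Knockout pool 2 was highest and knockout pool 1 lay within the control range, so the groups overlapped. The log2 fold change was 0.36 ± 0.35 (SE), with a 95% interval from −0.41 to 1.13 and a limma adjusted p of 0.751. Without knockout pool 1 it was 0.91 and without knockout pool 2 it was −0.19, so its direction rests on a single pool. Aqp9 and Aqp8 thus both stood higher in knockout pool 2 than in knockout pool 1, by 2.27-fold and 13.7-fold.

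Aqp11 encodes an unorthodox aquaporin of the endoplasmic reticulum. It measured 1.42 and 2.92 FPKM in control pools 1 and 2, and 3.67 and 2.06 FPKM in knockout pools 1 and 2. It was the 1 tested member that stood lower in knockout pool 2 than in knockout pool 1. The groups overlapped, with a log2 fold change of 0.29 ± 0.31 (SE), a 95% interval from −0.41 to 0.99 and a limma adjusted p of 0.774. Without control pool 1 the fold change was −0.05 and without knockout pool 1 it was −0.01. The remaining 8 aquaporin genes summed to 1.04 to 1.42 FPKM per library. Aqp1 and Aqp7 made up nearly all of that, Mip, Aqp4, Aqp6 and Aqp12 were listed at 0, and Aqp2 and Aqp5 appeared at 0.042 FPKM in knockout pool 1 only.

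**Figure D2:**
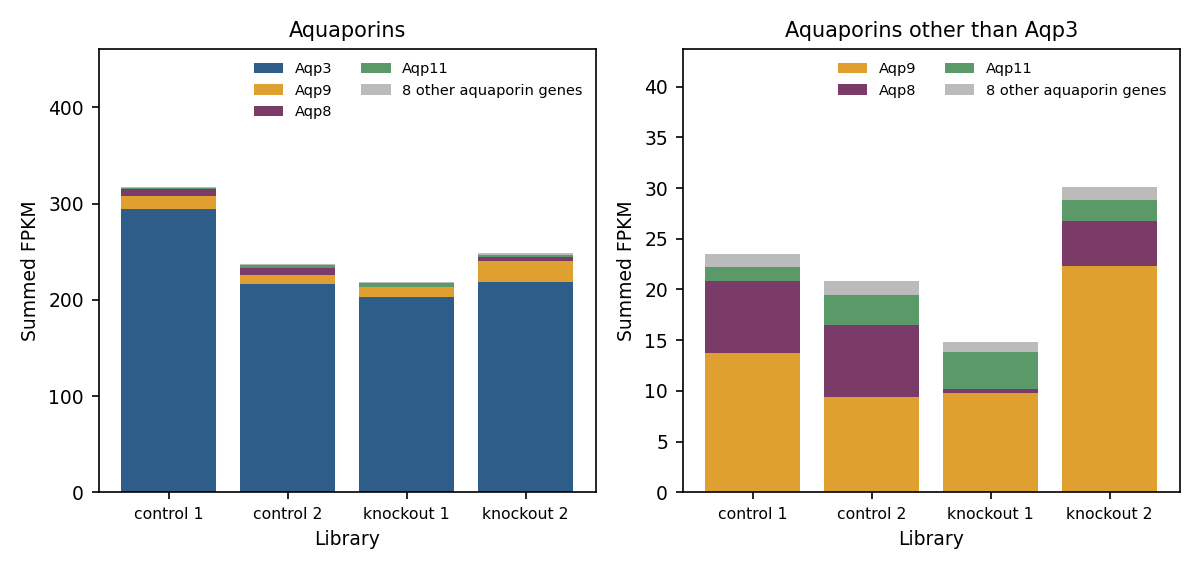
Summed FPKM of the aquaporins in each library, with all aquaporins on the left and those other than Aqp3 on the right. Aqp3 fills 87.9% to 93.2% of each left bar, while on the right the Aqp8 part nearly vanishes in knockout pool 1 and the Aqp9 part is widest in knockout pool 2.

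As a set, aquaporin transcripts summed to 317 and 237 FPKM in control pools and 218 and 248 FPKM in knockout pools. The means were 277 ± 56.7 and 233 ± 21.3 FPKM (SD, n = 2 each; exact two-sided permutation p = 0.667, with 0.333 the smallest possible). Knockout pool 2 lay between the control pools. Aqp3 made up 92.6% and 91.2% of the sum in control pools and 93.2% and 87.9% in knockout pools. The Aqp9 share was 4.32% and 3.96% in control pools, and 4.50% and 8.98% in knockout pools. The Aqp8 share was 2.23% and 2.995% in control pools, and 0.150% and 1.81% in knockout pools. Shares of Aqp8 and of Aqp9 did not overlap between the groups, though the FPKM of Aqp9 did. The exact two-sided permutation p of 0.333 for each cannot go lower here and is no evidence of a difference. In FPKM, groups were apart in 41.4% of all genes tested. All aquaporins other than Aqp3 summed to 23.5 and 20.8 FPKM in control pools and to 14.9 and 30.1 FPKM in knockout pools.

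Ordered by mean FPKM over the libraries, the members ran from Aqp3 at 233 through Atp1b3 at 28.1, Atp1b1 at 15.2, Aqp9 at 13.8, Aqp8 at 4.76 and Aqp11 at 2.52 to Slc9a3 at 0. Aqp3 and Atp1b3 were each above their lower neighbour in every library, with ranges that did not meet. Atp1b1 and Aqp9 did not differ beyond their spread: Atp1b1 was higher in 3 of 4 libraries and Aqp9 in knockout pool 2. Aqp9 was above Aqp8 in all 4. Aqp8 was above Aqp11 in 3 libraries and below it in knockout pool 1, where Aqp11 was 3.67 and Aqp8 0.328 FPKM.

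**Figure D3:**
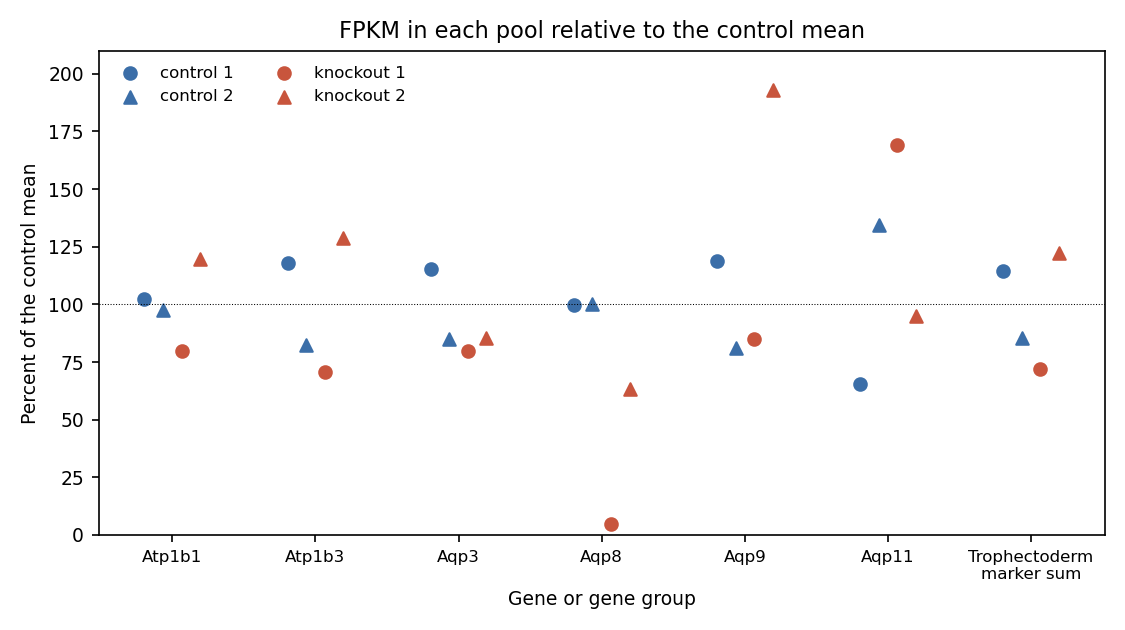
FPKM of each tested member and of the summed trophectoderm markers in each library, as percent of the control mean, with 1 point per pool. Aqp8 falls to 4.62% in knockout pool 1, and Aqp9 reaches 193% in knockout pool 2.

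Pools of the same group differed from each other as well. Of 6 tested members 5 were higher in knockout pool 2 than in knockout pool 1, as were 66.1% of all genes tested, whose median difference was 0.16 on the log2(FPKM + 1) scale. Differences of the members were 0.55 for Atp1b1, 0.83 for Atp1b3, 1.11 for Aqp9, 2.05 for Aqp8, 0.10 for Aqp3 and −0.61 for Aqp11. A difference at least as high as that of Atp1b3 was found in 3.89% of tested genes, and as that of Aqp9 in 1.14%. Control pool 1 was higher than control pool 2 in 4 of 6 members and in 67.9% of all genes tested. Aqp11 ran against most genes in both groups.

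Trophectoderm markers also varied between pools. Summed over the 13 markers, FPKM was 900.2 and 673 in control pools 1 and 2, and 565 and 962 in knockout pools 1 and 2, the same order as for Atp1b1 and Atp1b3. Of the 13 markers 12 were higher in knockout pool 2 than in knockout pool 1. Per 100 FPKM of that sum, Atp1b3 held 3.43 to 3.76 FPKM over the pools, Atp1b1 1.73 to 2.204 FPKM and Aqp3 22.7 to 35.96 FPKM, which are ranges of 1.10-fold, 1.27-fold and 1.59-fold. The sum is led by Id2 and Dppa1. Without these 2, left out after their values were seen, it was 249 and 199.8 FPKM in control pools and 242 and 370.0 FPKM in knockout pools. Per 100 FPKM of this smaller sum, Atp1b3 held 13.3 and 11.55 FPKM in control pools and 8.22 and 9.78 in knockout pools. Atp1b1 held 6.25 and 7.43 against 5.00 and 4.92, and Aqp3 held 117.9 and 108.3 against 83.95 and 58.9. The groups of these genes were thus apart on the smaller sum, while on the full sum they overlapped. Aqp9 and Aqp11 overlapped on the smaller sum. The share of all genes apart on either scale was not computed, so the smaller sum gives no evidence of a difference between the groups. Aqp8 held 0.788 and 1.06 FPKM per 100 of the full sum in control pools, and 0.0580 and 0.468 in knockout pools. This only rescales the Aqp8 values that were already apart in FPKM and adds no support to their difference. The summed primitive endoderm markers were 570 and 410 FPKM in control pools and 434 and 646 FPKM in knockout pools. A single marker made up 599 FPKM of that sum in knockout pool 2. The summed epiblast markers were 427 and 392 against 459 and 504 FPKM. Log2 fold changes were positive in 1 of 6 tested primitive endoderm markers and 5 of 8 tested epiblast markers, and none passed. The part of cell makeup in the members' levels was not tested.

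Genes whose values over the 4 libraries lay closest to those of a member were sought for the 2 most abundant members, by Euclidean distance of log2(FPKM + 1) centred on its mean. Closest to Aqp3 among 5692 genes were Dhps, an enzyme of hypusine synthesis, Gpn2, a GTPase, and Urad, an enzyme of uric acid breakdown, at 0.023 to 0.0296. Closest to Atp1b3 were Cnot10, of the CCR4-NOT deadenylase, Mmab, of cobalamin metabolism, and Rnf185, a ubiquitin ligase, at distances up to 0.05. Within a distance of 0.1 lay 35 genes for Aqp3 and 14 for Atp1b3. Among the members themselves Atp1b1 and Atp1b3 were the closest pair, at 0.367, and Aqp8 and Aqp11 the farthest, at 2.70. With only 4 libraries these distances describe the pools and nothing more.

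Of the 6 lists of other genes in fluid transport, 77 genes were found in the table and 33 could be tested. None passed in limma, and 3 had an unadjusted p under 0.05, against 11.1% of all genes tested. Their median log2 fold change was −0.11, against 0.05 for all genes tested. Among junction and polarity genes, which seal the cavity, 13 of 13 were tested, with 4 positive and 9 negative fold changes and a median of −0.07. Cldn6, a claudin of early epithelia, measured 50.9 and 60.1 FPKM in control pools and 29.3 and 37.6 FPKM in knockout pools. Both knockout pools lay below both control pools, with a log2 fold change of −0.72 ± 0.21 (SE; limma adjusted p = 0.278). Cldn4, the most abundant of the list, measured 403 and 318 against 299 and 332 FPKM. Cldn7, another claudin, measured 299 and 194 against 160 and 245 FPKM, and F11r, a junctional adhesion molecule, 77.9 and 56.4 against 49.1 and 75.4 FPKM, all 3 with overlapping groups. Prkcz, a polarity kinase, ranged from 109 to 143 FPKM, and Cgn, Cdh1, Pard3 and Pard6b from 4.40 to 11.2 FPKM. Prkcz and Pard3 were lower in both knockout pools than in both control pools, which with Cldn6 makes 3 of 13, against 14.0% of all genes tested, and none of these passed.

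Of the other sodium, chloride and bicarbonate transport genes 7 of 23 were tested, with 5 positive fold changes and a median of 0.26. Groups did not overlap in 4 that were higher and 2 that were lower in knockout pools, against 27.4% and 14.0% of all genes tested. Car4, a membrane-bound carbonic anhydrase, measured 12.5 and 9.15 FPKM in control pools and 14.0 and 16.8 FPKM in knockout pools (log2 fold change 0.48 ± 0.25 SE; limma adjusted p = 0.505). Slc12a2, the sodium-potassium-chloride cotransporter of secretory epithelia, measured 1.54 and 1.11 FPKM against 2.40 and 2.40 FPKM (limma adjusted p = 0.437), and was named after its values were seen. Slc12a7, a potassium-chloride cotransporter, ranged from 6.29 to 8.22 FPKM with overlapping groups.

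**Figure D4:**
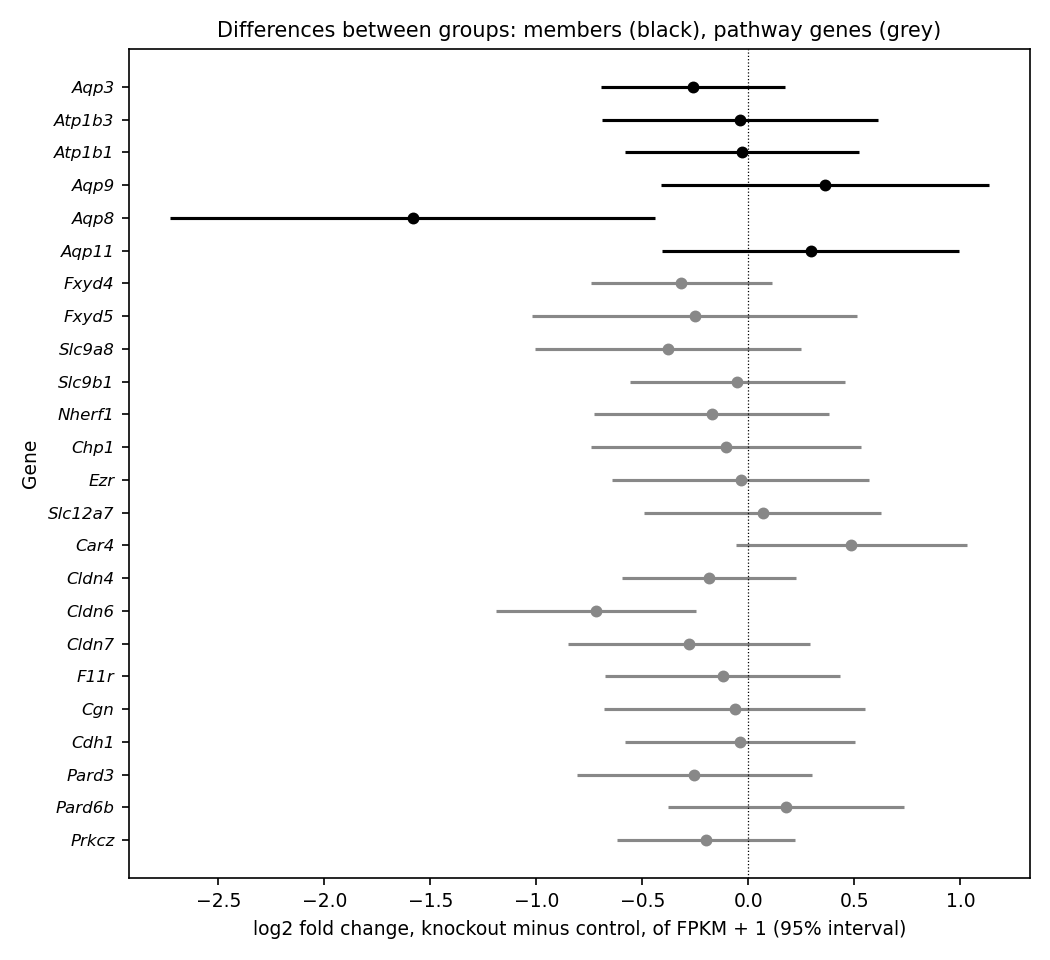
Log2 fold change of FPKM + 1, knockout minus control, with its 95% interval from limma, for the 6 tested members (black) and for list genes named by their level (grey), n = 2 pools a group; Fxyd2 and Slc12a2, named after their values were seen, are not drawn. Of the intervals drawn, those of Aqp8 and Cldn6 lie below 0 before adjustment over all genes, and the others include 0.

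The authors' deposited table gives log2 fold changes of −1.56 for Aqp8, −0.28 for Aqp3, 0.48 for Aqp9, 0.40 for Aqp11, −0.006 for Atp1b1 and −0.003 for Atp1b3. In the authors' deposited table the p of Aqp8 was 0.261 and its FDR was 1, while 0.241% of all rows had an FDR under 0.05. The KEGG labels of the authors' deposited table place 5 members, Atp1b1, Atp1b3, Slc9a3, Aqp8 and Aqp9, in bile secretion, along with 101 rows in all that carry this label. On GRCm38 the members lie on chromosomes 1 (Atp1b1, 164437109 to 164458355), 4 (Aqp3, 41092722 to 41098183), 7 (Aqp8, 123462291 to 123468004, and Aqp11, 97724006 to 97738289), 9 (Aqp9, 71110659 to 71168682, and Atp1b3, 96332655 to 96364442) and 13 (Slc9a3, 74121457 to 74169442). All are annotated as protein coding.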

How the data were processed

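Poly(A) RNA-seq of 4 pools of 5 blastocysts was analysed, 2 pools a group. The deposited values are FPKM per library and, as group means, FPKM with 0.001 in place of 0, as the file headers and the numbers themselves show. The submitters' processing notes name, without roles, the build GRCm39 and the tools DESeq2, RSEM, StringTie 1.3.1, HISAT2 2.1.0, Bowtie2 2.2.8 and fastp 0.18.0. The authors also deposited a log2 fold change, a p-value and an FDR per gene, and no source used here says which tool gave them. The log2 fold change in the deposited table is that of the group means. FPKM are not counts, so log2(FPKM + 1) was fitted with limma 3.58.1 in R 4.3.3, with an intensity trend, no block, 2 degrees of freedom left for the spread, and adjustment after Benjamini and Hochberg across the 9544 genes averaging 1 FPKM or more. Of the 7 members 6 passed that filter. The pipeline was tested on simulated data with independent normal noise, which does not copy knockout pools as far apart as these.

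Members and lists were chosen with earlier results of these data known. Besides the members and Ywhaz, genes of the lists with a mean of at least 5 FPKM, pump, exchanger and aquaporin genes with at least 1 FPKM, and the 3 nearest genes of the 2 most abundant members were named. Some genes that this rule names are not reported here, though list counts include them. Fxyd2, Slc12a2, low family members and single markers were chosen after seeing their values. The depth estimate used genes with 1 transcript of over 1500 nt and took fragments as 200 nt long, which put 69.5% to 73.1% of low values within 0.1 of a whole fragment. Positions and lengths are from GENCODE M21 on GRCm38, which held 99.2% of the identifiers. Upstream windows are from RefSeq on GRCm38.p6 and were found for all 7 members. A list entry under an older symbol of Nherf1 or Nherf2 was not matched again. Motif matches were counted on both strands.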

Additional observations from a re-analysis of the deposited data

How the results depend on the processing

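No member passed with a pseudocount of 0.1, no filter, a minimum of 5 FPKM (which leaves 4 members tested), TPM, median-of-ratios or quantile scaling, or limma without the trend. The count of all genes called, 7, was 0 with no filter on low values and with quantile normalization (1400 and 1249 at an unadjusted p under 0.05), 13 with TPM scaling, 4 with median-of-ratios scaling and 3 without the trend; the cause was not tested. Leaving out each library gave 15 to 205 genes, 0 to 1 members and 0 to 1 genes of the lists. Without knockout pool 2 the member was Aqp8 and the listed gene Cldn6 (limma adjusted p = 0.0402). The Ywhaz fold change then ran from −1.99 to −0.43. The difference in Atp1b1 share ran from −3.48 to 3.65 percentage points, that in Aqp3 share from −4.04 to 1.29, and that in summed aquaporin FPKM from −84.3 to −4.14. With TPM scaling the Atp1b1 fold change was 0.0016, and that of Slc12a7 was −0.0018 with median-of-ratios scaling and −0.016 with quantile normalization. Of 251 fold changes of 32 genes outside the leave-one-out fits, 247 kept direction and side of the threshold. Of 128 with a library left out 28 changed sign. Their log2 fold changes ran for Atp1b1 from −0.31 to 0.24, Atp1b3 from −0.46 to 0.38, Aqp9 from −0.19 to 0.91, Aqp11 from −0.054 to 0.64, Fxyd5 from −0.83 to 0.32, Slc9b1 from −0.10 to 7.3e-05, Chp1 from −0.53 to 0.32, Ezr from −0.33 to 0.26. Further genes that changed sign were Slc12a7 from −0.10 to 0.24, Cldn7 from −0.59 to 0.028, F11r from −0.42 to 0.18, Cgn from −0.36 to 0.23, Cdh1 from −0.16 to 0.085, Cnot10 from −0.49 to 0.33, Mmab from −0.42 to 0.35, Rnf185 from −0.43 to 0.36.

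The labels do not say that replicate numbers pair pools, and same-numbered pools deviated from their group means with a correlation of −0.24 across 9544 genes. With a replicate block limma called 38 genes, 1 of them a member, Aqp8 (−1.58, limma adjusted p = 0.0089), and Ywhaz at −1.21 (limma adjusted p = 0.0025). That fit has 1 residual degree of freedom, and limma set the spread of each gene wholly from the trend over genes. With crossed pairing, tried after seeing the data, 475 genes and 1 member were called. Depth limits Aqp8 in knockout pool 1 to about 8 fragments.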
